A study of Mus musculus with 16 samples.

Results

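The comparison described here is that of hTau.P301S + NR mice with WT + NR mice, the genotype effect in animals that all received nicotinamide riboside (NR). Its members were set by the sample labels, and it holds 8 of the 16 hippocampal RNA-seq libraries of the series, 4 mice in each group. The hTau.P301S mouse expresses human Tau with the P301S mutation from the Thy1 promoter, which is active in neurons, and WT mice lack the transgene. Dentate gyrus markers summed to 499 to 1490 CPM (reads of a gene relative to the TMM-scaled library total, per 1000000), CA1 markers to 489 to 1020 CPM and CA2 and CA3 markers to 1310 to 2340 CPM in the 8 mice. Neocortex markers summed to 604 to 905 CPM and thalamus and habenula markers to 415 to 1000 CPM. WT + NR replicate 3 was the lowest mouse for the dentate gyrus, CA1, CA2 and CA3, and neocortex sums. Thalamus and habenula sums were 1000 CPM in hTau.P301S + NR replicate 4 and 803 CPM in WT + NR replicate 3. In the other NR mice they were 415 to 557 CPM. The sums thus differed between mice, and alone they do not show which fields each sample held. By the sample labels NR was given at 6 mM in drinking water for 3 months, from 12 to 15 months of age. The paper gives a younger age and, in a later passage, a shorter course. The other 8 mice, 4 hTau.P301S and 4 WT, drank vehicle water. They share no animal with the comparison and are used as a second reading of the same genotype difference. Whether mice of one group were littermates is not given in the sources used here, so the tests measure the spread between these animals.

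Tau is a microtubule-binding protein of neurons, and in tauopathies it becomes hyperphosphorylated and aggregates. Microglia and astrocytes around neurons with aggregated Tau typically become reactive, with a rise of Gfap in astrocytes and of a disease-associated set in microglia. NR is converted by nicotinamide riboside kinases to nicotinamide mononucleotide and then to NAD+, the coenzyme of the respiratory chain and the substrate of sirtuins and PARPs.

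Total counts of the 8 mice ranged from 17518497 to 21915362, and mitochondrially encoded genes took 4.53% to 6.4% of them. Y-linked transcripts were present in 3 of 4 hTau.P301S + NR mice and in 1 of 4 WT + NR mice, and the other 4 mice had high Xist, so sex, which the labels do not give, was unequal between the groups. One control stood apart. WT + NR replicate 1 had 2210 CPM of Gfap and 32.2 CPM of Cst7, against 506 to 618 CPM and 0.225 to 0.6 CPM in the other WT + NR mice. Its Gm13394 level was that of WT mice. On the principal components of all genes kept, PC1 took 35% of the variance and placed WT + NR replicate 3 at 65.1, with the other 7 mice between -41.9 and 26.6. PC2 took 20.9% and placed the hTau.P301S + NR mice between -35.6 and -7.3 and the WT + NR mice between 1.7 and 52.9, so the groups did not overlap on it.

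Of 16671 genes tested with edgeR's quasi-likelihood test, 11 were differentially expressed (0.066%), with 9 higher and 2 lower in hTau.P301S + NR. A gene counted as differentially expressed (DEG) when its Benjamini-Hochberg adjusted p was under 0.05 and its log2 fold change beyond 0.5 in either direction. At an unadjusted p under 0.05, called the unadjusted limit from here on, 422 genes were higher (2.53%) and 641 lower (3.85%). The median log2 fold change of all genes tested was -0.02. The groups did not overlap for 270 genes that were higher in hTau.P301S + NR (1.62%) and 352 that were lower (2.11%). With DESeq2 on the same 8 mice, 58 genes were called (0.348%), among them all 11. Adjusted p-values below are edgeR's unless DESeq2 is named.

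All 9 higher DEGs were processed pseudogenes, copies of an mRNA inserted back into the genome, and both lower DEGs, H2-D1 among them, were protein-coding genes. Pseudogenes made up 3.9% of the genes tested, and 1.38% of them were DEGs, against 0.0138% of the protein-coding genes. To show which transcripts these loci resemble, each was aligned to the mouse protein-coding transcripts of GENCODE M21 (GRCm38, the assembly that mm10 denotes). The closest transcripts were those of Gapdh for Gm13394, Rpsa for Rpsa-ps10, Rpl15 for Gm10020, Rps26 for Rps26-ps1, Scoc for Gm7335, Cox7a2l for Gm6969, Tdg for Gm9855, Atp5o for Gm5436 and Snrpf for Gm13092. Identity over the aligned bases was between 97% and 99.9%.

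How little separates copy and parent is shown by 60-base stretches inside the parent's coding sequence, printed 5′ to 3′ with the bases that differ in capitals. Over the whole 1000 bases of Gm13394, which lies at chr2:28933610-28934609 on the minus strand, 1 base differs from the Gapdh transcript. Counted from 1 at the 5′ end of the Gapdh transcript, that difference is A438C.
Gm13394: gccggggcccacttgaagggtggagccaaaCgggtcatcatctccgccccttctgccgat
Gapdh: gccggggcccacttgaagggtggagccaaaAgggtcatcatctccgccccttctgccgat
Rpsa-ps10, at chr3:150072658-150073542 on the minus strand, differs from Rpsa at 6 of 885 aligned bases, and the stretch below holds T385C and C394T, counted along the Rpsa transcript.
Rpsa-ps10: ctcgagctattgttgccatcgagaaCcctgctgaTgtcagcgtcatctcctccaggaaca
Rpsa: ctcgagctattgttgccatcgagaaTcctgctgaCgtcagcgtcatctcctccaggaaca
Gm10020, at chr15:52477617-52478228 on the minus strand, differs from Rpl15 at 2 of 612 bases, A373G and C419A along the Rpl15 transcript.
Gm10020: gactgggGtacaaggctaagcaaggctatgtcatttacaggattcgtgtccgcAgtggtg
Rpl15: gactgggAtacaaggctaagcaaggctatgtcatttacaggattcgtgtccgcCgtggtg
Gm5436, at chr12:84258331-84258973 on the minus strand, is the least similar of the 9 copies, with 19 differences from Atp5o over 643 bases and 5 of them in this stretch.
Gm5436: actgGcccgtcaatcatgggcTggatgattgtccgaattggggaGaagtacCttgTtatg
Atp5o: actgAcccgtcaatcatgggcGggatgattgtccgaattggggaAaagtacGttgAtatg
Reads that match copy and parent equally well can be assigned to either, and how such reads were counted is not given in the sources used here, so the levels of all 9 loci are uncertain in that respect.

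Gm13394 carried the largest difference. It was read at 180, 247, 170 and 226 CPM in the hTau.P301S + NR mice and at 2.31, 2.29, 2.07 and 1.58 CPM in the WT + NR mice. Every transgenic mouse was far above every control, and the fitted fold was 99.4 (log2 fold change 6.63 ± 0.20 SE, adjusted p = 6.64e-07). In the 8 mice without NR it was at 234 to 568 CPM in hTau.P301S and 1.42 to 2.05 CPM in WT, so it separated the genotypes in all 16 mice and followed their labels. Gapdh, the glycolytic enzyme that nearly all cells make in quantity, was itself read at 3.72 to 6.44 CPM in the 8 NR mice. Per kilobase of deposited gene length that is 0.899 to 1.56 CPM, against 262 to 487 CPM for the actin gene Actb.

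The ribosomal protein copies followed. Rpsa-ps10 was at 138, 158, 145 and 144 CPM in hTau.P301S + NR and at 24.2, 18.4, 27 and 19.1 CPM in WT + NR, a log2 fold change of 2.72 ± 0.14 (adjusted p = 4.66e-05). Gm10020 was at 7.34, 8.08, 7.78 and 9.27 CPM against 0.0513, 0.109, 0.197 and 0.338 CPM, so that a few reads stand behind each control value (5.51 ± 0.33, adjusted p = 4.66e-05). Rps26-ps1 was at 54.1, 40.6, 72.4 and 28.3 CPM against 1.85, 0.382, 1.08 and 0.958 CPM (5.49 ± 0.43, adjusted p = 9.59e-04). For all 3 copies the lowest transgenic mouse lay well above the highest control.

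The other 5 copies resemble genes of mitochondria, splicing, DNA repair and membrane traffic. Gm6969, a copy of the respiratory supercomplex factor Cox7a2l, was at 16.3, 25.4, 23.3 and 20.3 CPM against 0.154, 0.6, 0.493 and 1.58 CPM (4.93 ± 0.42, adjusted p = 0.00177). Gm5436, a copy of the ATP synthase subunit gene Atp5o, was at 5.91, 6.26, 5.71 and 5.39 CPM against 1.59, 1.47, 1.48 and 1.13 CPM (2.03 ± 0.19, adjusted p = 0.00326). For both copies the transgenic values were clear of the controls. Gm7335, a copy of Scoc, was at 17.4, 16, 12.9 and 11.6 CPM against 1.33, 2.02, 2.32 and 2.2 CPM (2.88 ± 0.22, adjusted p = 9.59e-04). Gm9855, a copy of the DNA glycosylase gene Tdg, was at 5.15, 5.63, 5.88 and 4.85 CPM against 0.975, 1.09, 0.789 and 0.62 CPM (2.62 ± 0.23, adjusted p = 0.00177). Gm13092, a copy of the Sm protein gene Snrpf of the spliceosome, was the lowest of the 9 at 0.851, 0.834, 0.839 and 1.02 CPM against 0.154, 0.0546, 0.148 and 0.0564 CPM (3.00 ± 0.40, adjusted p = 0.014). Its call was lost on leaving out WT + NR replicate 1, 2 or 4 or hTau.P301S + NR replicate 1 or 4, with an adjusted p of up to 0.167.

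**Figure D1:**
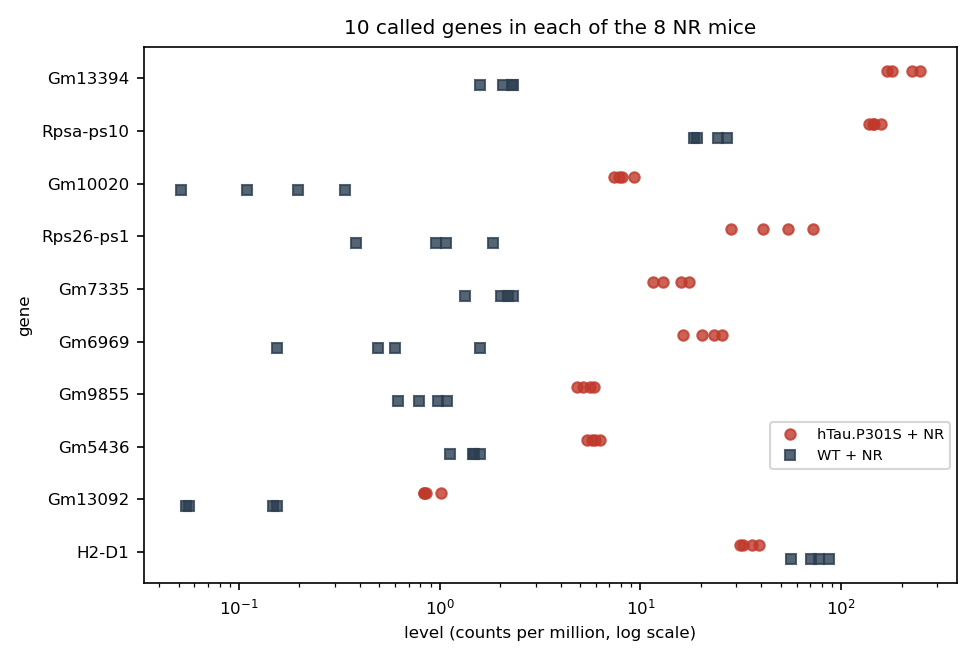
Level of 10 of the 11 DEGs in CPM (x axis, log scale) in each NR mouse, with circles for the 4 hTau.P301S + NR mice and squares for the 4 WT + NR mice. The 9 pseudogenes are higher in every transgenic mouse, up to 247 CPM for Gm13394, and H2-D1 is lower in every transgenic mouse.

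Parents and copies were then read together. For 8 of the 9 copies the summed level of copy and parent overlapped between the genotypes, with ratios of group means between 0.669 and 1.04, while the parent alone had a lower mean in hTau.P301S + NR for all 9. Rpsa was at 277 to 328 CPM in hTau.P301S + NR and 323 to 557 CPM in WT + NR, and with Rpsa-ps10 added the means were 447 ± 22.3 and 442 ± 105 CPM (SD, 4 mice each). Rps26 was at 109 to 138 against 120 to 232 CPM alone and at 172 ± 20.2 against 166 ± 48.1 CPM with its copy. Scoc with Gm7335 was at 107 ± 7.68 against 122 ± 20.9 CPM. These sums overlapped between the groups, and no test was run on them.

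The exceptions were at both ends. Gapdh with Gm13394 was at 211 ± 36.7 CPM in hTau.P301S + NR and 7.56 ± 1.2 CPM in WT + NR, a ratio of 27.9 without overlap. Tdg, whose product removes thymine from mismatched DNA, was lower alone in every transgenic mouse, at 14.8, 15.4, 15.6 and 15.5 CPM against 28.8, 38.4, 19.4 and 28.8 CPM (log2 fold change -0.91, adjusted p = 0.297), and its sum with Gm9855 kept a ratio of 0.696 with overlapping groups. Snrpf was likewise lower alone without overlap, and its sum with Gm13092 had a ratio of 0.669.

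**Figure D2:**
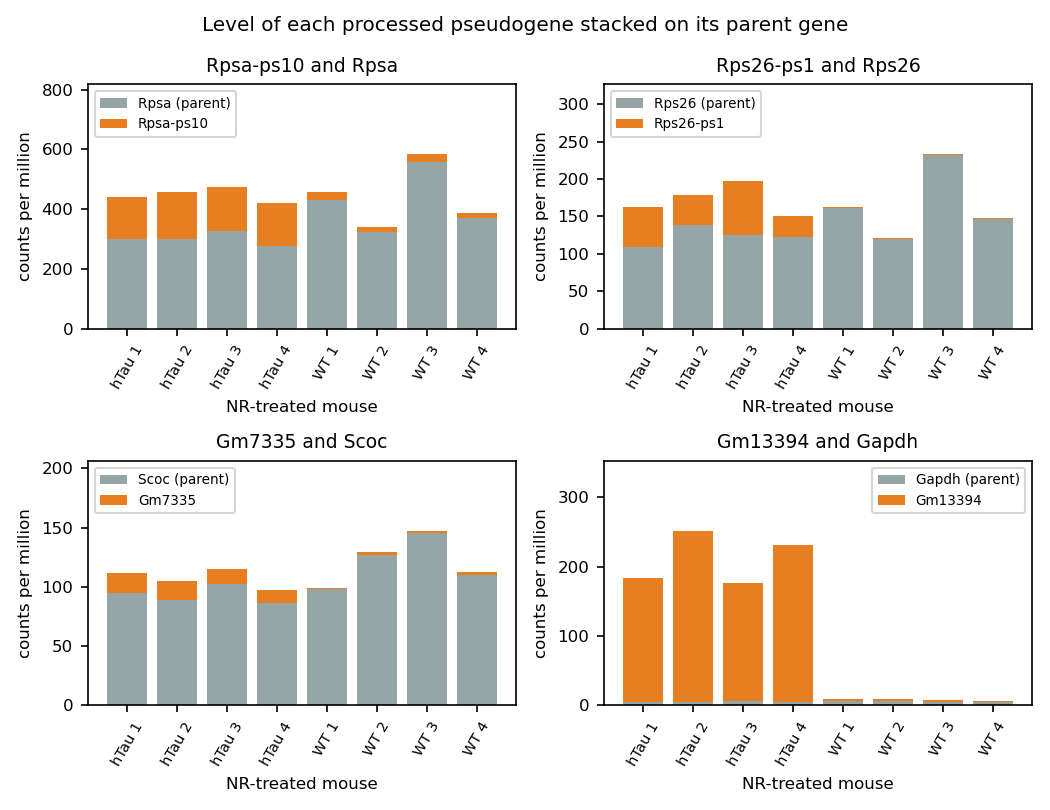
Levels in CPM (y axis) of 4 parent genes (grey) and the processed pseudogenes stacked on them (orange) in each NR-treated mouse (x axis, hTau for hTau.P301S + NR and WT for WT + NR). The stacked totals of Rpsa, Rps26 and Scoc overlap between genotypes, and that of Gapdh with Gm13394 is 176 to 252 CPM in the transgenic mice and at most 8.73 CPM in controls.

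H2-D1, a heavy chain of the MHC class I molecules that present peptides to CD8 T cells, was lower in hTau.P301S + NR. It was at 35.9, 32.5, 31.2 and 39 CPM in hTau.P301S + NR and at 87, 56.4, 71.1 and 77.7 CPM in WT + NR (log2 fold change -1.08 ± 0.14, adjusted p = 0.0453). Transgenic values clustered below every control. The gene lies at chr17:35262730-35267499 on the plus strand. The call was sensitive to single mice. With each mouse left out in turn the adjusted p of H2-D1 ranged from 0.0151 to 0.262, and it stayed a DEG only without WT + NR replicate 2 or 3. With Y-linked counts as a covariate, a fit added after seeing the data, the adjusted p was 0.219 at a log2 fold change of -1.01. The value stayed negative in all of these fits. Without NR it was -0.48, with 28.7 to 80.7 CPM in hTau.P301S and 41.9 to 89.3 CPM in WT, and the groups overlapped. The 80.7 CPM was hTau.P301S replicate 1, and the other hTau.P301S mice were at 28.7 to 52.4 CPM.

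Other MHC genes leaned the same way. Of 26 genes of the list tested, 22 had a negative log2 fold change, 9 of them at an unadjusted p under 0.05 and none higher, and the median was -0.48. With single mice left out the 9 became 6 to 11, and DESeq2 called 3 genes of the list, all lower. H2-K1, a second class I heavy chain, was at 27.9, 29.1, 23.6 and 31.9 CPM against 62.7, 39.8, 44 and 66.8 CPM, without overlap (log2 fold change -0.92, adjusted p = 0.289). H2-Q6 was at 0.469 to 1.5 against 2.12 to 4.68 CPM and H2-Q7 at 0 to 0.839 against 1.33 to 3.16 CPM, with adjusted p of 0.289 and 0.664. Some H2 genes resemble each other closely in sequence, so reads may be shared among those, and H2 sequences were not aligned here. In the mice without NR the median of the list was -0.04, with 1 of 24 genes higher and 1 lower at that limit. There hTau.P301S replicate 1 had 1020 CPM summed over the list, against 264 to 335 CPM in the other hTau.P301S mice. WT mice without NR had 247 to 450 CPM. Endothelial and mural markers, which can carry class I transcripts, had a summed level of 903 to 1000 CPM in hTau.P301S + NR and 999 to 1430 CPM in WT + NR, with 3 of 19 lower and none higher at that limit. Their part in the MHC values was not tested.

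The 11 DEGs were looked up in the 8 mice without NR. All 11 had the same sign there, and 9 had an unadjusted p under 0.05. All 9 were the pseudogenes. Over all genes tested in both sets of mice, 7272 of 16132 had the same sign (45.1%), 753 of them at that limit without NR. Gm13394 was the single DEG of the comparison without NR (1 of 16375 genes, 0.00611%). In the interaction over all 16 mice, 0 of 17555 genes passed an adjusted p under 0.05 (0%) with edgeR, 1513 genes had an unadjusted p under 0.05, and DESeq2 gave 18 genes.

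**Figure D3:**
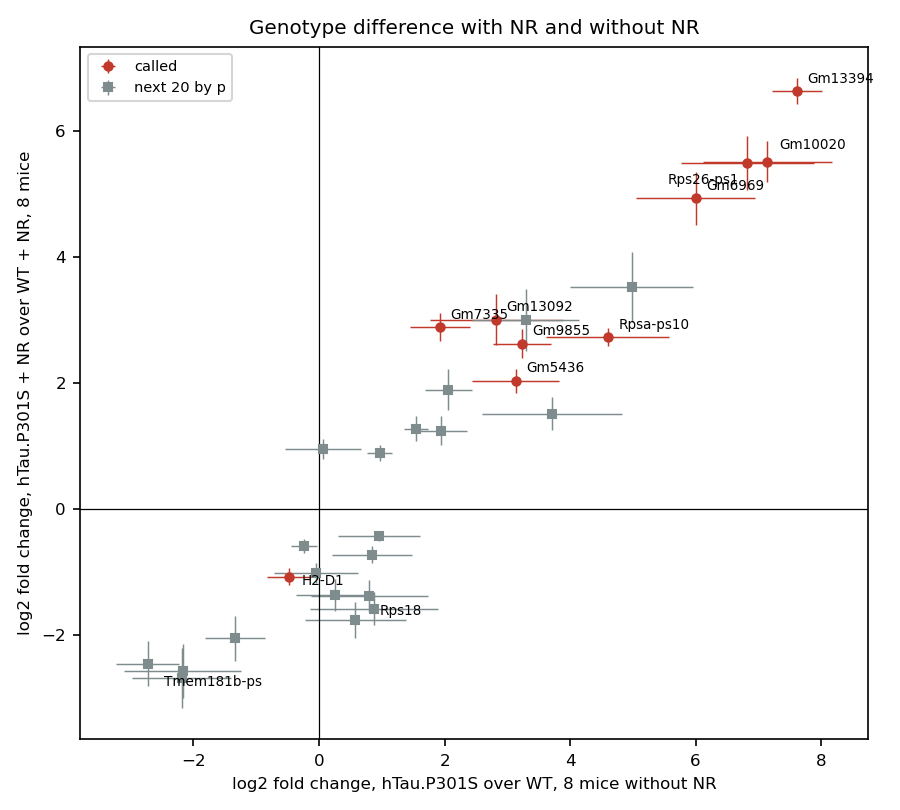
Log2 fold change of hTau.P301S over WT in the 8 mice without NR (x axis) and in the 8 mice with NR (y axis) for 10 of the 11 DEGs (circles) and the next 20 genes by p (squares), with standard errors. The DEGs lie in the quadrants of equal sign, from 6.63 for Gm13394 with NR down to -1.08 for H2-D1, and several of the next 20, Rps18 among them, lie below 0 with NR and above 0 without. For Rps18 without NR, hTau.P301S replicate 1 was at 1000 CPM, the other hTau.P301S mice at 52.8 to 83.5 CPM and WT at 122 to 234 CPM.

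The 20 genes next in order of p did not pass the adjusted limit with edgeR, while with DESeq2 on the same mice all 20 had an adjusted p under 0.05, from 7.51e-10 to 0.00205. In the mice without NR, 14 of them had the same sign, against 45.1% of all genes tested in both sets of mice. Folh1, the carboxypeptidase that cleaves N-acetylaspartylglutamate, was at 15.7, 16.1, 15.2 and 15.8 CPM in hTau.P301S + NR and 8.67, 7.15, 9.56 and 8.68 CPM in WT + NR (log2 fold change 0.88 ± 0.13, adjusted p = 0.0928), and its value without NR was 0.97 (adjusted p = 0.396). Tmem181b-ps, a pseudogene of a membrane protein on chromosome 17, was at 10.1 to 12.9 CPM against 25 to 98.8 CPM, with log2 fold changes of -2.46 with NR and -2.73 without. Its neighbour Dynlt1b, a dynein light chain gene, was at 0.28 to 1.16 against 2.35 to 2.93 CPM. The groups did not overlap for any of these 3 genes.

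Among the other named candidates, copies and uncharacterised loci were common. Rpl15-ps2 (log2 fold change 3.52), AC160336.1 (2.99), Gm14150 (1.89), Gm11361 (1.51), Gm20075 (1.27) and Gm10704 (1.24) had positive log2 fold changes, and also without NR, from 1.55 for Gm20075 to 4.98 for Rpl15-ps2. Gm42732 was at 32.1 to 43.5 against 14.8 to 23.4 CPM with NR, and its log2 fold change without NR was 0.06. The chemokine gene Ccl27a was at 12.3 to 17.5 against 26.6 to 35.2 CPM (log2 fold change -1.02, adjusted p = 0.0983), with -0.05 without NR. In those mice it was at 101, 12.4, 15.5 and 12.4 CPM in hTau.P301S, the 101 CPM in replicate 1, and at 32.1 to 40.1 CPM in WT. Acss2, which makes acetyl-CoA from acetate, was at 27.2 to 30.6 against 36.4 to 47.4 CPM (-0.60, adjusted p = 0.195). The fatty acid-binding protein gene Fabp5 was at 44.4 to 47.1 against 59.2 to 63.6 CPM, a small difference with very little spread (-0.44 ± 0.08, adjusted p = 0.195).

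Haemoglobin transcripts, the mark of red blood cells left in the tissue, had low levels in all hTau.P301S + NR mice, though none passed the adjusted limit in the edgeR fit. With DESeq2 on the same mice the adjusted p was 4.71e-06 for Hbb-bs, 4.36e-05 for Hba-a1 and 0.0432 for Hbb-bt. Hbb-bs was at 1.12, 0.782, 0.616 and 1.02 CPM against 4.36, 4.2, 9.81 and 2.99 CPM in WT + NR (log2 fold change -2.58, adjusted p = 0.145). Hba-a1 and Hbb-bt had log2 fold changes of -2.69 and -2.57 with adjusted p of 0.172 and 0.289, and their groups did not overlap either. Of the 5 erythrocyte genes tested, 4 were lower at an unadjusted p under 0.05, and the median was -2.57 with NR and -1.95 without. In bulk tissue, fewer cells of a type and less RNA per cell cannot be told apart.

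Genes of protein synthesis and respiration had mostly lower values. Of 86 cytosolic ribosomal protein genes, 75 had a negative log2 fold change, 19 of them at an unadjusted p under 0.05 against 1 higher, with a median of -0.33. The 19 became 11 without hTau.P301S + NR replicate 1, without hTau.P301S + NR replicate 3 or without WT + NR replicate 3, 39 without WT + NR replicate 2, and 7 without both mice numbered 1, a fit added after seeing the data. None passed the adjusted limit with edgeR, and DESeq2 on the same mice called 4 lower. Rps18 of the small subunit was at 46.3, 66.8, 45.9 and 81.4 CPM against 167, 102, 202 and 159 CPM (log2 fold change -1.39, adjusted p = 0.18, or 9.29e-05 with DESeq2), and Rpl21 of the large subunit at 24.2, 25.8, 28.2 and 22 CPM against 76, 33.9, 85.2 and 63.7 CPM (-1.37, adjusted p = 0.195, or 0.000175 with DESeq2). Neither gene overlapped between groups. Rpl13a had a log2 fold change of -0.60. Both ribosomal copies among the next 20 with negative values had groups apart, Rpsa-ps2 at 0.895 to 1.55 against 2.84 to 5.22 CPM and Rpl21-ps8 at 1.51 to 2.14 against 4.48 to 8.03 CPM. Over the 52 ribosomal protein pseudogenes tested, 5 were higher and 10 lower at the unadjusted limit, with a median of -0.27 and 2 DEGs, Rpsa-ps10 and Rps26-ps1. The 10 became 6 without hTau.P301S + NR replicate 1 or replicate 3.

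Nuclear-encoded genes of the respiratory chain gave 72 negative values of 77, with 15 lower and none higher at an unadjusted p under 0.05 and a median of -0.26. With single mice left out the 15 became 11 to 25, the highest without hTau.P301S + NR replicate 2, and without both mice numbered 1 they became 10. Ndufa1 of complex I was at 15, 25.4, 15.1 and 24.2 CPM against 34.3, 29.6, 47.1 and 40.2 CPM (log2 fold change -0.92, adjusted p = 0.633, or 0.0442 with DESeq2). Uqcr11 of complex III had -0.81, Atp5g1 of ATP synthase -0.53 and Cox6a1 of complex IV -0.44, each without overlap. The 13 mitochondrially encoded genes had a median of 0.10 and none at the unadjusted limit in either direction. In the mice without NR the medians of the ribosomal and respiratory lists were 1.56 and 1.17, the opposite sign. There hTau.P301S replicate 1 had 142000 CPM in ribosomal protein genes, against 11600 to 14700 CPM in the other hTau.P301S mice.

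Gene length moved with these lists. The 4172 shortest genes tested, at 57 to 2437 bases by the deposited lengths, had a median log2 fold change of -0.12, with 99 genes higher and 297 lower at an unadjusted p under 0.05. The 4168 longest, from 6408 bases, had a median of 0.06, with 166 higher and 61 lower. The part of length in the ribosomal and respiratory values was not tested.

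The proteasome list gave 5 of 47 genes lower and none higher at the unadjusted limit, with a median of -0.09, and 2 lower without WT + NR replicate 1, WT + NR replicate 3 or hTau.P301S + NR replicate 1. Psmb5, the catalytic subunit with chymotrypsin-like activity, was at 36.9, 55.2, 43.7 and 51.3 CPM against 69.6, 77.1, 85 and 79.6 CPM (log2 fold change -0.73, adjusted p = 0.207, or 0.00204 with DESeq2), and Psmb7, another catalytic subunit, had -0.36. Among 68 core spliceosome genes 6 were lower and 1 higher, with a median of -0.02, equal to that of all genes. The 6 became 4 without WT + NR replicate 1 and 10 without hTau.P301S + NR replicate 2. The 3 with the smallest p were Snrpf (-0.78), Snrpb (-0.53) and Lsm4 (-0.49), all small Sm or Sm-like proteins of the snRNPs. Of 46 SR protein and hnRNP genes 4 were lower, among them Hnrnpa1 (-0.32) and Srsf9 (-0.43). Neuronal splicing regulators had 3 of 31 higher and none lower. Chaperone genes had 4 of 56 lower and 1 higher, and Hspa1a, the inducible HSP70, was at 4.79 to 7.81 against 8.74 to 24.3 CPM (-1.21, adjusted p = 0.708).

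**Figure D4:**
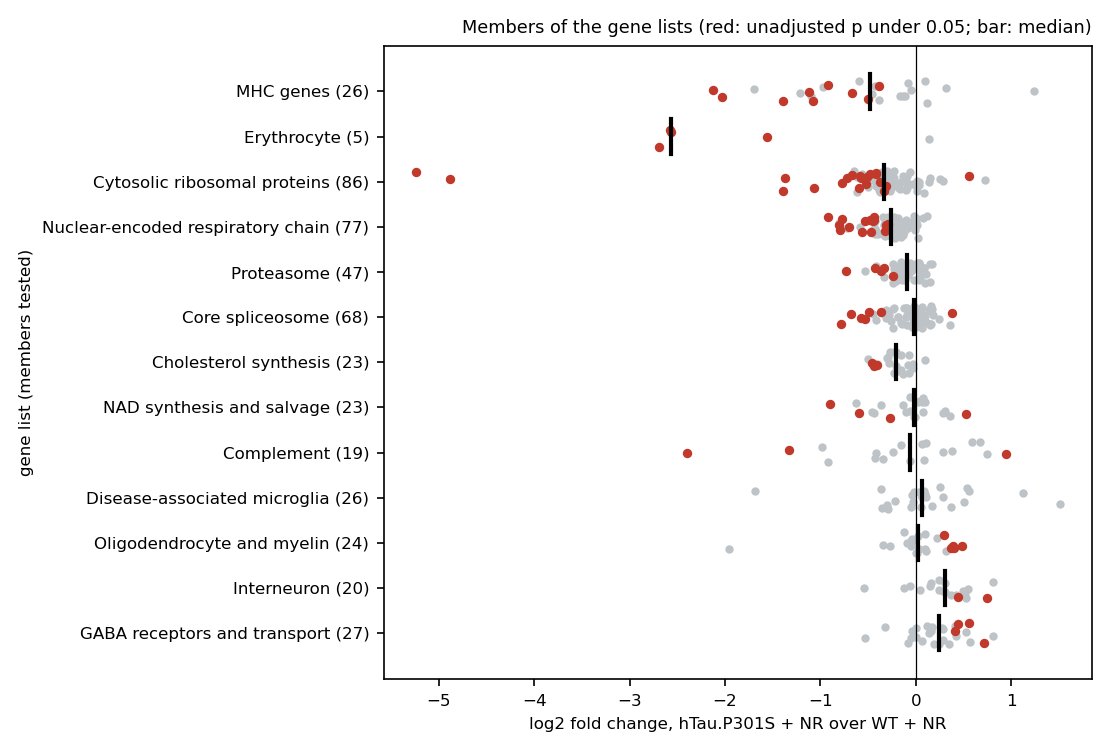
Log2 fold change of hTau.P301S + NR over WT + NR (x axis) for the tested members of 13 gene lists (y axis, number tested in brackets), in red where the unadjusted p was under 0.05, with a bar at each list's median. The MHC, erythrocyte, ribosomal and respiratory lists lie mostly below 0 (medians of -0.48, -2.57, -0.33 and -0.26), and the interneuron and GABA lists mostly above (0.31 and 0.24).

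Genes around NAD+ itself gave no DEG with edgeR. Of 23 tested genes of NAD+ synthesis and salvage, 1 was higher and 3 lower at the unadjusted limit, with a median of -0.02. Over all genes tested, 2.53% were higher and 3.85% lower at that limit. Slc29a3, an equilibrative nucleoside transporter, was at 29.8, 22.3, 28.5 and 27.3 CPM against 22, 17.9, 17.4 and 17.6 CPM (log2 fold change 0.53, adjusted p = 0.664). Slc29a4, of the same transporter family, had -0.90, the mitochondrial NAD+ transporter gene Slc25a51 -0.27 and Nmnat3, the mitochondrial NMN adenylyltransferase, -0.60, all with adjusted p of 0.708 or above. Nmrk1 and Nampt, added for their roles after the values were seen, are the kinase that phosphorylates NR and the rate-limiting enzyme of salvage from nicotinamide. Nmrk1 was at 3.06 to 5.76 against 2.71 to 6.06 CPM and Nampt at 51.5 to 80.2 against 56.6 to 69.8 CPM, with overlapping groups. Of 23 NAD+-consuming enzymes, Sirt6 (-0.52) and Sirt3 (-0.45), 2 deacylases, were lower at the unadjusted limit, and none was higher.

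Thy1, a neuronal surface glycoprotein gene, lends its promoter to the transgene. Its level was 666, 712, 844 and 708 CPM in hTau.P301S + NR and 571, 579, 423 and 526 CPM in WT + NR, without overlap (log2 fold change 0.48 ± 0.13, adjusted p = 0.708), and the value without NR was 1.11. Mouse Mapt was at 480, 424, 452 and 483 against 460, 492, 415 and 413 CPM (0.05 ± 0.10), and counts of the human transgene were not analysed here. Tubulin genes Tubb2a (-0.37) and Tuba1a (-0.31) were the 2 of 34 microtubule genes at the unadjusted limit, both lower. Of 33 Tau kinase and phosphatase genes, Gsk3b (0.32) and the PP2A subunit Ppp2r2a (0.30) were higher and Gsk3a (-0.25) lower at that limit. Eva1c, the receptor-like gene that the study followed, was at 1.7, 2.61, 1.4 and 2.09 CPM against 2.77, 1.64, 3.15 and 3.21 CPM (-0.47 ± 0.29, adjusted p = 0.764), and its value without NR was 0.79. The groups overlapped for Mapt and for Eva1c.

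Gabre and Zdbf2 varied widely among the controls. Gabre, a GABA-A receptor subunit gene on the X chromosome, was at 3.69 to 4.9 CPM in hTau.P301S + NR and at 0.359, 0.0546, 13 and 0.845 CPM in WT + NR. The imprinted gene Zdbf2 was at 37.2 to 58.5 against 13.7, 31.9, 80 and 24.2 CPM. WT + NR replicate 3 was the highest mouse for both genes, and without it the log2 fold change of Gabre was 3.4 (adjusted p = 0.0252) in place of 0.27. Zdbf2 had 0.39 with all mice. In the mice without NR, Gabre was at 0.256 to 0.544 CPM in hTau.P301S and at 3.01, 14.5, 0.895 and 0.054 CPM in WT. There Zdbf2 had a log2 fold change of -1.14 (adjusted p = 0.549), at 9.13 to 24.7 against 28.9 to 40.8 CPM without overlap.

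Inhibitory neuron genes had mostly positive values, with counts that moved with single mice. Of 27 GABA receptor and transport genes, 21 had a positive log2 fold change, 4 of them at an unadjusted p under 0.05 and none lower, and the median was 0.24. The 4 became 2 without WT + NR replicate 4, hTau.P301S + NR replicate 1 or hTau.P301S + NR replicate 4, and 11 without WT + NR replicate 3. In fits added after seeing the data they became 1 with Y-linked expression as a covariate and 0 without both mice numbered 1. Gad1, which makes GABA from glutamate, was at 460, 497, 386 and 534 CPM against 296, 328, 441 and 314 CPM (log2 fold change 0.44). Receptor subunits Gabra2 (0.71) and Gabrg3 (0.56) were among the 4, and the adjusted p of all 3 named genes was 0.756. Lhx6, a transcription factor of interneurons from the medial ganglionic eminence, was at 24.7 to 36.4 against 10 to 26.9 CPM, and the interneuron list had 2 of 20 higher and none lower. The 2 became 1 without hTau.P301S + NR replicate 4, 9 without WT + NR replicate 3 and 0 with the covariate. Without NR the medians of the GABA and interneuron lists were -0.19 and -0.25. Rims2, a scaffold of the presynaptic active zone, was at 97.7 to 109 against 65.3 to 84.7 CPM (0.46 ± 0.10, adjusted p = 0.432, or 0.0191 with DESeq2) and was the 1 of 36 release genes at the unadjusted limit. Striatal markers had a summed level of 1850 CPM in hTau.P301S + NR replicate 4 and 713 to 910 CPM in the others of that group. In WT + NR they had 1180 CPM in replicate 3 and 679 to 777 CPM in the others.

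Myelin genes gave 5 of 24 higher and none lower at the unadjusted limit, with a median of 0.02. The 5 became 2 without hTau.P301S + NR replicate 1 or without WT + NR replicate 4, and 1 with the Y-linked covariate. Fa2h (0.39) and Ugt8a (0.40) make the galactolipids of myelin, and Trf (0.48) encodes transferrin, and none of the 3 passed the adjusted limit. Cholesterol synthesis, which also supplies myelin, had 22 negative values of 23, with Ebp (-0.41), Tm7sf2 (-0.44) and Mvd (-0.46) at the unadjusted limit. These 3 became 0 without hTau.P301S + NR replicate 1, without hTau.P301S + NR replicate 3 and with the covariate, and 9 without WT + NR replicate 1. Zinc finger genes with a Zfp symbol had 17 of 361 higher and 4 lower (9 to 25 and 1 to 7 with single mice left out, the lowest without hTau.P301S + NR replicate 3 and the highest without WT + NR replicate 3), and Zfp786 (0.59) and Zfp541 (1.41) had the smallest p. The nuclear noncoding RNA Neat1 was at 46.6 to 78.6 against 75.9 to 194 CPM (-1.02, adjusted p = 0.708), with -1.39 in the mice without NR.

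Counts of reactive glia genes moved with the mice numbered 1. With all 8 mice, 0 of 26 disease-associated microglia genes passed an unadjusted p under 0.05, and the median was 0.07. Clec7a, a phagocytic receptor of that set, was at 18.9, 4.8, 8.17 and 6.55 CPM in hTau.P301S + NR and 10.2, 0.928, 1.33 and 1.01 CPM in WT + NR, and Itgax at 13.1, 1.67, 4.48 and 4.9 against 7.39, 1.15, 1.28 and 1.35 CPM. In both cases WT + NR replicate 1 lay within the range of the transgenic mice and the other 3 controls lay below it. Cst7, a protease inhibitor of the same set, reached 32.2 CPM in that mouse, above all transgenic mice (1.72 to 4.66 CPM).

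Without WT + NR replicate 1, 10 of the 26 genes were higher and none lower at the unadjusted limit, where 2.64% of all genes tested were higher. The median of the list was then 0.33. That fit kept hTau.P301S + NR replicate 1, the transgenic mouse highest in Clec7a and Itgax. Without that mouse instead, 0 of the 26 genes were at the limit in either direction and the median was 0, and without both mice numbered 1, a fit added after seeing the data, 8 were higher and none lower with a median of 0.23. Without WT + NR replicate 2, 4 were lower and none higher. Clec7a had a log2 fold change of 3.14 (adjusted p = 0.206) and Cst7 of 2.44 (adjusted p = 0.404), where the sign of Cst7 had been negative with all mice. Homeostatic microglia genes went from 1 of 16 higher to 7 of 16, and complement genes from 1 of 19 higher and 2 lower to 7 higher and 4 lower. Without hTau.P301S + NR replicate 1 no gene of either list was higher, and without both mice numbered 1 the counts were 4 higher for the homeostatic list and 6 higher and 3 lower for complement. In the mice without NR 14 of 26 disease-associated microglia genes were higher and none lower at the unadjusted limit, where 623 of 16375 genes tested were higher. There hTau.P301S replicate 1 had 33700 CPM summed over that list against 6160 to 8120 CPM in the other hTau.P301S mice. Clec7a was at 1.49 to 27.1 CPM in hTau.P301S and 0.105 to 1.42 CPM in WT without NR. Itgax was at 2.82 to 16.2 against 0.486 to 1.2 CPM and Cst7 at 0.997 to 67.3 against 0 to 0.616 CPM. The groups did not overlap for these genes. With edgeR no gene of these 3 lists passed the adjusted limit in the NR comparison, with or without WT + NR replicate 1, or in the mice without NR. DESeq2 on the 8 NR mice called 1 complement gene, C1s1, lower (adjusted p = 0.0125).

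Gfap was at 2100, 865, 1470 and 711 CPM in hTau.P301S + NR and 2210, 506, 616 and 618 CPM in WT + NR, a log2 fold change of 0.38 ± 0.52 SE with all mice and of 1.16 without WT + NR replicate 1 (adjusted p = 0.875 and 0.774). In the mice without NR the log2 fold change of Gfap was 1.24 (adjusted p = 0.569), with overlapping groups. Astrocyte reactivity genes had 0 of 34 higher and 3 lower at the unadjusted limit with all mice, H2-D1 among them, 6 higher and 4 lower without that control, 0 higher and 3 lower without hTau.P301S + NR replicate 1, and 4 higher and 3 lower without both. Complement genes at the unadjusted limit with all mice were C4a (0.95), C1s1 (-2.40) and C1ra (-1.33). C1s1 and C1ra, proteases of the C1 complex, were highest in WT + NR replicate 4, at 3.21 and 5.19 CPM, and choroid plexus and meningeal markers were highest in the same mouse, at 15200 and 317 CPM summed. Their part was not tested. Interferon-stimulated genes had 2 of 26 higher, Ifit3b (0.67) and Ifit3 (0.55), and 1 lower, Ifi27 (-0.68).

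Choroid plexus RNA varied from mouse to mouse. Ttr, the transthyretin gene that choroid plexus cells express at a very high level, was at 44.4, 3410, 20.5 and 395 CPM in hTau.P301S + NR and at 36.9, 26.5, 5520 and 9040 CPM in WT + NR. Both groups held low and high mice. All 20 choroid plexus genes tested had a negative log2 fold change, 2 of them, Kl (-2.10) and Cldn2 (-2.82), at the unadjusted limit, and the median was -2.16. Without WT + NR replicate 1, 13 of the 20 were lower at that limit, and without WT + NR replicate 2, 14. None was lower without WT + NR replicate 3, without WT + NR replicate 4 or without any 1 of hTau.P301S + NR replicates 1, 3 and 4. The summed list level was 282 to 4670 CPM and 284 to 15200 CPM. Ependymal markers had a median of -0.64 and meningeal markers of -0.75, with 1 of 7 and 0 of 11 lower at that limit.

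**Figure D5:**
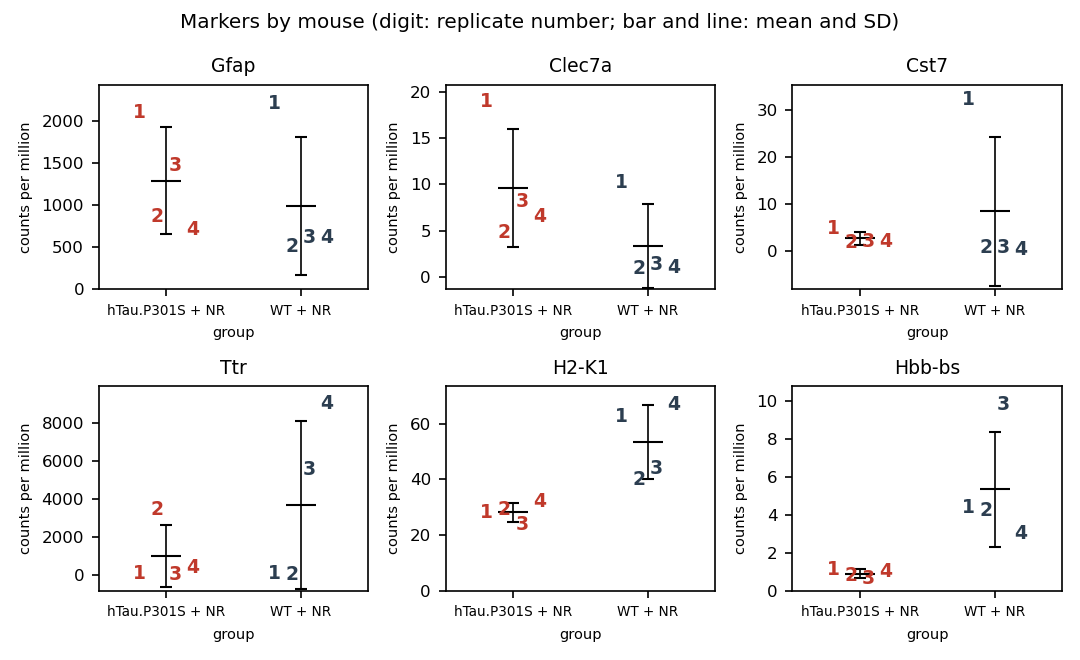
Level in CPM (y axis) of 6 genes in each NR mouse by group (x axis), with each mouse drawn as its replicate number and the mean and SD as bar and line. WT + NR replicate 1 lies far above the other controls for Gfap (2210 CPM), Clec7a and Cst7, Ttr is high in WT + NR replicates 3 and 4, and H2-K1 and Hbb-bs are lower in every hTau.P301S + NR mouse.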

How the data were processed

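Hippocampal poly(A) RNA was sequenced by the authors with a library kit that, as described, does not mark strand. Per the labels and the paper, reads were trimmed, aligned to mm10 with STAR and counted per gene with RSEM, and the authors deposited raw counts as whole numbers with a gene length. How multiply matching reads were treated is not given in the sources used here.

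The 8 NR mice were fitted with edgeR 4.0.16 (R 4.3.3) with filterByExpr, TMM factors and the quasi-likelihood test. The 8 mice without NR were fitted likewise, and the interaction over 16 mice. Levels are CPM with TMM factors of all mice. The standard error was taken from the log2 fold change and the test statistic. Parents of pseudogenes were found with blastn. The fits were first tested on simulated data. With 200 genes changed by a log2 fold change of 1, edgeR recovered 38.5% of them and DESeq2 59%. Of the calls, 9.41% were wrong with edgeR and 25.3% with DESeq2. At a log2 fold change of 2, edgeR recovered 91% with 6.67% of calls wrong, and DESeq2 93.5% with 16.9% wrong.

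Genes named were all DEGs, the next 20 by p, 6 set genes, up to 4 members with the smallest p of each list and defining cell markers, with parents of pseudogenes beside them. Comparison, members and lists were chosen with earlier results of these data known. Alternatives included DESeq2 1.42.0, other filters and each mouse left out. Splicing was not analysed here, and 1 DEG and 1 list member are not reported.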

Additional observations from a re-analysis of the deposited data

Results flagged for a closer look

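In 186 groups of 4 mice, one for each named gene and NR group, 16 values stood apart from the other 3 by a gap, relative to the range, above Dixon's critical value, where chance flags about 1 in 20 groups. WT + NR replicate 1 held 6 of them, all highest: Gfap at 2210 CPM, Cst7 at 32.2 CPM, Clec7a at 10.2 CPM, Itgax at 7.39 CPM, Slc29a3 at 22 CPM and Rpl15-ps2 at 0.257 CPM. WT + NR replicate 3 held 3, highest for Gabre at 13 CPM and Hba-a1 at 7.2 CPM and lowest for Nmrk1 at 2.71 CPM. WT + NR replicate 2 was lowest for Gm10704 at 1.15 CPM and highest for Gm11361 at 7.2 CPM, and WT + NR replicate 4 was highest for C1s1 at 3.21 CPM. Among the hTau.P301S + NR mice, replicate 1 was highest for Cst7 at 4.66 CPM and lowest for Psmb7 at 46.4 CPM, replicate 2 was highest for Ttr at 3410 CPM, and replicate 4 was highest for Gm13092 at 1.02 CPM. No gene passed the test of a genotype effect that differed with NR in edgeR, and no named gene had groups apart in opposite directions with and without NR.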

How the results depend on the processing

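The 11 DEGs became 58 with DESeq2, 21 with DESeq2 on all 16 mice, 7 with edgeR on all 16 mice and 6 with at least 10 counts in every mouse, which removes copies absent from controls. With single mice left out the count ranged from 8 to 39, the highest without WT + NR replicate 3, where the 11 were among the 39. With Y-linked counts as a covariate, chosen after seeing the data, it was 8, and 3 on all 16 mice. Same-numbered mice are different animals, and their deviations correlated at 0.27, -0.43, -0.51 and 0.09, so the numbers do not pair them. The replicate block gave 4 DEGs. Without NR the count of 1 became 115 with DESeq2, 3 with the replicate block, 3 without a filter, and 1 to 15 with single mice left out, the highest without hTau.P301S replicate 1, with 2 without WT replicate 3. The interaction count of 0 became 18 with DESeq2 and 0 to 2 with single mice left out, with 1 gene without WT + NR replicate 1 and 2 without hTau.P301S replicate 3. Gm13394 was called under all 22 alternatives, with log2 fold changes from 6.51 to 6.77, while H2-D1 lost its call under 15 of 22 and stayed lower. Signs turned for Cst7, at 2.44 without WT + NR replicate 1, 1.99 without both replicate 1 mice and 0.28 with the replicate block. They also turned for Gabre, at -0.1, -0.12 and -0.04 without WT + NR replicates 1, 2 and 4 and -0.07 without both replicate 1 mice, and for Nampt, at -0.01 without WT + NR replicate 3, 0 and -0.05 without hTau.P301S + NR replicates 1 and 3, and -0.02 with the covariate. The ranges with single mice left out were -2.16 to 2.44 for Cst7, -0.12 to 3.4 for Gabre and -0.05 to 0.15 for Nampt. The cause was not tested. Levels under 1 CPM, such as those of Gm13092, rest on few counts per mouse.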

Other observations

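Several neuronal and housekeeping lists were counted at an unadjusted p under 0.05 in the NR comparison. Over all genes tested, 2.53% were higher and 3.85% lower at that limit, and no list was tested against these shares. Immediate early genes had 0 of 27 in either direction, lysosomal genes 0 of 48, circadian clock genes 0 of 22, pan-neuronal markers 0 of 15, dentate gyrus markers 0 of 13 and CA1 markers 0 of 10. Glutamate receptor and postsynaptic genes had 2 of 53 higher and none lower, clustered protocadherins 1 of 54 higher, and potassium channel genes 1 of 83 higher and 2 lower. Autophagy and mitophagy genes had 1 of 35 higher and 1 lower. Imprinted genes had 1 of 37 lower and ephrin and Slit-Robo genes 2 of 43 in each direction.

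Of 14 tested genes known to differ between inbred mouse strains, 2 were higher and 3 lower at an unadjusted p under 0.05 with NR, and none in either direction in the mice without NR. The 5 were Wdfy1 (log2 fold change 0.94), Gabra2 (0.71), H2-D1 (-1.08), H2-K1 (-0.92) and Cox7a2l (-0.44), the last of which is also the parent of Gm6969. A part of strain background in these values was not tested.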
